A study of Mus musculus with 24 samples.

Results

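Messenger RNA of 10 protease genes of the ADAM and ADAMTS families was followed in the hearts of mice after transverse aortic constriction (TAC), an operation that narrows the aortic arch and loads the left ventricle with pressure. The members were the rows of a gene count table of heart tissue with the symbols Adam8, Adam12, Adam17, Adam19, Adamts1, Adamts2, Adamts4, Adamts5, Adamts9 and Adamts15, 10 of 40840 genes in all, and all 10 had enough reads to be among the 15027 genes tested. They were picked by name with earlier results of these libraries known. A higher Adam19 level in hypoxia sham than in normoxia sham hearts was one of those results, so that contrast, and the difference between TAC responses that contains it, are described for Adam19 with no test. The other Adam19 contrasts with a sham group use those same sham hearts. Their p-values, and the place of Adam19 in counts of members called, are therefore descriptions.

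The 24 mice fell into 4 groups of 6: TAC in hypoxia, TAC in normoxia, sham surgery in hypoxia and sham surgery in normoxia. All were C57/Bl6J animals labelled wild type, and all tissue was heart apex taken on day 3, so every group shares strain, region and time. The constriction was a suture tied around a blunt 25-gauge needle between the innominate and left common carotid arteries. The labels give neither the oxygen level, nor how long hypoxia lasted, nor sex, age or hour of harvest, and they name no batch. RNA came from tissue that was not sorted by cell type, so fewer cells of a type and less RNA per cell cannot be told apart.

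Libraries held 10136915 to 15058159 assigned reads, and levels are given as CPM, the reads of a gene scaled to a common library size after TMM normalisation. Markers of cardiomyocytes summed to 49200 to 71400 CPM in hypoxia TAC, 30800 to 63300 CPM in normoxia TAC, 60400 to 64800 CPM in hypoxia sham and 61600 to 66700 CPM in normoxia sham hearts, with all 8 listed markers tested. The TAC groups were the more scattered ones: the standard deviation (SD) of log2 CPM between mice, for the median gene, was 0.323 among hypoxia TAC hearts and 0.409 among normoxia TAC hearts, against 0.175 among hypoxia sham hearts and 0.173 among normoxia sham hearts. Fold changes are fitted log2 values with their standard error (SE) from edgeR's quasi-likelihood test of all 24 libraries, and a gene was called where its p-value, adjusted by the Benjamini-Hochberg method over all genes tested, was under 0.05. The contrasts share groups and are therefore not independent of each other.

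ADAM proteins are membrane-anchored metalloproteinases that cut other proteins off the cell surface, a step called ectodomain shedding, which releases growth factors, cytokines and adhesion receptors in active or soluble form. ADAMTS proteins are their secreted relatives, held in the matrix by thrombospondin repeats. One branch cuts the large proteoglycans versican and aggrecan, and another trims the amino-terminal propeptide from fibrillar procollagen so that fibres can form. In the heart, ADAM12 and ADAM17 are known for releasing ligands of the EGF receptor, ADAM19 is required in mice for the cushions that form valves and septa, and ADAMTS1, ADAMTS5 and ADAMTS9 act on the versican of the developing heart.

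Promoters are shown for Adamts1, the member with the most transcript per length, and for Adam19, the member called in opposite directions after TAC in the 2 oxygen conditions. They are RefSeq sequences of build GRCm38.p6, from 250 bases before to 50 after an annotated start, written on the strand of the gene, with motif matches in capitals. Of the 10 members 6 had an entry, and Adam19 had 3 starts, which counts per gene do not separate. The first line is Adamts1 at chr16:85803064-85803363 on the minus strand, and the next are the first and second Adam19 starts at chr11:46054252-46054551 and chr11:46055734-46056033 on the plus strand.
Adamts1: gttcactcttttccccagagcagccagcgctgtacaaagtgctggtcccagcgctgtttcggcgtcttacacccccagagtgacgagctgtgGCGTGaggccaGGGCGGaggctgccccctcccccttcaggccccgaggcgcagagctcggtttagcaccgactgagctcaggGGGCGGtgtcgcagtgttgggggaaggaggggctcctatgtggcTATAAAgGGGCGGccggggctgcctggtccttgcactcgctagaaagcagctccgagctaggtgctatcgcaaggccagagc
Adam19 start 1: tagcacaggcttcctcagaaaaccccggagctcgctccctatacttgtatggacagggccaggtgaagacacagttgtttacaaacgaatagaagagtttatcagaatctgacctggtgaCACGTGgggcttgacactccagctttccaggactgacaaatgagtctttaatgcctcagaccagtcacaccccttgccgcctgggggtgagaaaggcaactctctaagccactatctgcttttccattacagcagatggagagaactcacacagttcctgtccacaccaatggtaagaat
Adam19 start 2: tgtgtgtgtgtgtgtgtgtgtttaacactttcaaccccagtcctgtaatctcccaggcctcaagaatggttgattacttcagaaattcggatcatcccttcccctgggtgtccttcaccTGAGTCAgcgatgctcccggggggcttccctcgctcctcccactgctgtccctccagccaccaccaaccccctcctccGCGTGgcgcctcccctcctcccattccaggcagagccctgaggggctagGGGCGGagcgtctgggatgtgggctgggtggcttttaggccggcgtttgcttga
The letters searched on both strands were TGANTCA (AP-1), TGACGTCA (CRE), CACGTG (E-box), ACGTG and GCGTG (the core of hypoxia response elements), TATAAA and GGGCGG (GC box). ACGTG lies inside every CACGTG and was then counted for both. The Adamts1 window held TATAAA at position -32, where 0 is the annotated start, along with 3 GC boxes and 1 match to GCGTG. The TATAAA letters occurred in 13.6% of the 32851 promoters in the table, GGGCGG in 35.7% and GCGTG in 32.4%. Start 1 of Adam19 held CACGTG at position -130, a motif found in 7.15% of promoters, while start 2 held a TGANTCA match at position -131, found in 7.81%, with 1 match to GCGTG and 1 GC box. The core ACGTG, found in 19.6% of promoters, also occurred in the window of the third Adam19 start. The CRE was in 1.79% of promoters and in none of the members' windows. These matches are letters in a window and say nothing of binding.

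In hypoxia, TAC hearts had more Adam8, Adam12 and Adamts1 and less Adam19 than sham hearts, and the other 6 members were not called. That makes 4 of 10 members beside 11.1% of genes tested, of which 6.46% were higher and 4.68% lower. The members' median log2 change was 0.57, beside 0.011 for all genes tested. In normoxia, TAC hearts had more of 7 members than sham hearts and less of none, beside 27.4% of genes tested, of which 16.8% were higher. The 7 were Adam8, Adam12, Adam19, Adamts1, Adamts4, Adamts9 and Adamts2, and Adam17, Adamts5 and Adamts15 were not called. The median of the members there was 1.28, beside 0.0095 for all genes. Adam8 and Adam12 passed the filter on low counts through TAC libraries: its floor of 0.873 CPM had to be reached in 6 libraries, and 9 TAC and 1 sham library did so for Adam8, 7 TAC and 0 sham libraries for Adam12. Any gene that passes in this way has to differ between TAC and sham, so both are described and their calls support nothing. Of the 8 members that passed on sham libraries as well, 1 was higher and 1 lower after TAC in hypoxia (median 0.36), and 5 were higher in normoxia (median 0.93). These counts take in Adam19, whose sham groups were known beforehand to differ. Leaving Adam19 aside, 3 of the other 9 members were called in hypoxia and 6 in normoxia.

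**Figure D1:**
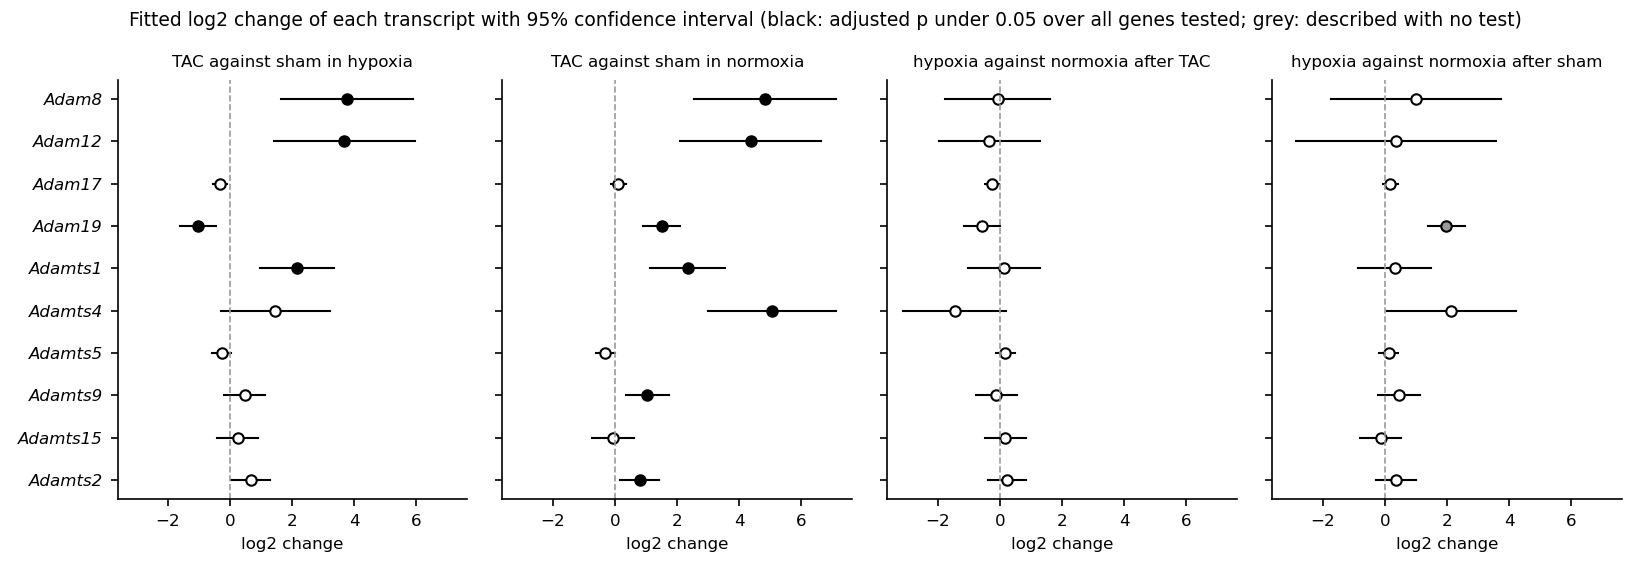
Fitted log2 change (horizontal axis) of each of the 10 transcripts in 4 contrasts, with 95% confidence intervals as lines. Black circles have an adjusted p under 0.05 over all genes tested, open circles do not, and the grey circle marks the Adam19 contrast described with no test. For TAC against sham, Adam19 lies at -1.04 in hypoxia and at 1.51 in normoxia, while Adamts1 lies at 2.16 in hypoxia and 2.34 in normoxia.

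Adam19, the shedding enzyme also called meltrin beta, was lower after TAC than after sham in hypoxia and higher after TAC than after sham in normoxia. Its lowest, median and highest levels were 15, 34.7 and 43.4 CPM in hypoxia TAC hearts, 29.4, 33.3 and 104 CPM in normoxia TAC hearts, 59.3, 66.2 and 71.2 CPM in hypoxia sham hearts, and 12.1, 15.2 and 24 CPM in normoxia sham hearts. All hypoxia sham mice lay above all hypoxia TAC mice and above all normoxia sham mice, and all normoxia TAC mice lay above all normoxia sham mice. Among genes tested, TAC and sham groups were likewise free of overlap for 5.67% in hypoxia and 8.9% in normoxia, and the sham groups for 5.02%. The hypoxia sham group was also narrow, with 65.6 ± 4.11 CPM (SD, n = 6).

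In hypoxia Adam19 averaged 31.9 ± 10.8 CPM after TAC and 65.6 ± 4.11 CPM after sham (SD, n = 6 each), a log2 change of -1.04 ± 0.28 (SE, edgeR adjusted p = 0.0216). That call held in each of the 24 fits that left out 1 library and was lost when no filter on low counts was used (adjusted p = 0.0543). In normoxia the sign was the opposite: Adam19 averaged 47.2 ± 28.8 CPM after TAC and 16.6 ± 5.05 CPM after sham (SD, n = 6 each), a log2 change of 1.51 ± 0.28 (SE, edgeR adjusted p = 0.00087). Normoxia TAC mouse 2, at 104 CPM, raised that mean, and without it the log2 change was 1.11. Among sham hearts the level in hypoxia exceeded that in normoxia by 1.98 ± 0.29 on the log2 scale (SE), and the TAC response in hypoxia minus that in normoxia was -2.55 ± 0.40 (SE). Both contrasts of TAC with sham rest on the sham hearts whose difference was known beforehand. Their calls therefore describe the levels and are no independent support.

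Ordered by mean level, Adam19 stood highest in hypoxia sham, then normoxia TAC, hypoxia TAC and normoxia sham hearts. The first neighbours in that order were not called, with normoxia TAC against hypoxia sham at -0.47 (95% interval -1.05 to 0.10, edgeR adjusted p = 0.214), although without normoxia TAC mouse 2 that value was -0.87 (adjusted p = 0.0094). Nor were the next, with hypoxia TAC against normoxia TAC at -0.56 (95% interval -1.14 to 0.01, edgeR adjusted p = 0.188), and at -0.16 without normoxia TAC mouse 2 (adjusted p = 0.684). The last were, with hypoxia TAC above normoxia sham by 0.95 ± 0.28 (SE, edgeR adjusted p = 0.0301). This last call was lost with no filter on low counts (adjusted p = 0.0717) and without hypoxia TAC mouse 2, 3 or 5 or normoxia sham mouse 2, 3 or 4 (adjusted p = 0.0508 to 0.0777). In the reference annotation 8.25% and 6.75% of the exon bases of Adam19 lie opposite the noncoding genes Gm16033 and Gm16034. Whether the authors counted by strand is not given in the sources used here.

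**Figure D2:**
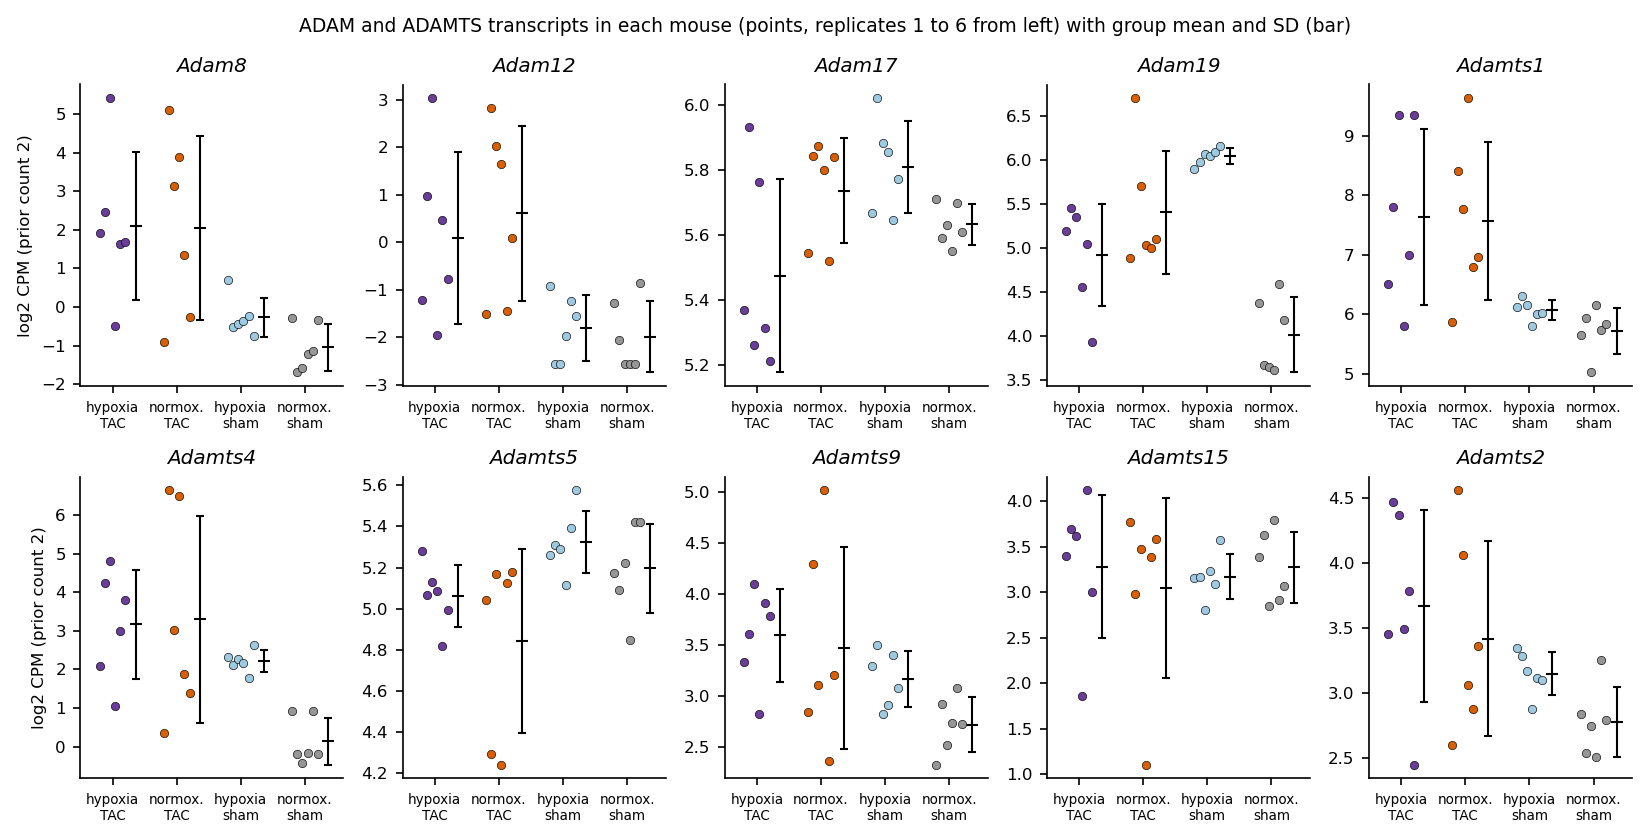
Log2 CPM (vertical axis, prior count 2) of each of the 10 transcripts in each mouse, as points for replicates 1 to 6 from left to right in hypoxia TAC, normoxia TAC, hypoxia sham and normoxia sham hearts, with the group mean and SD as a bar; each panel has its own scale. The tight hypoxia sham cluster of Adam19 lies above every normoxia sham point, and the TAC points of Adam8, Adam12, Adamts1 and Adamts4 spread over several log2 units.

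Adam8, a membrane ADAM best known from neutrophils and other myeloid cells, was scarce in sham hearts and very uneven after TAC. Its lowest, median and highest levels were 0.546, 3.34 and 42.4 CPM in hypoxia TAC hearts, 0.368, 5.55 and 34.5 CPM in normoxia TAC hearts, 0.430, 0.590 and 1.46 CPM in hypoxia sham hearts, and 0.141, 0.274 and 0.657 CPM in normoxia sham hearts. Hypoxia TAC mouse 4 and normoxia TAC mouse 1 lay within the range of sham hearts of their own oxygen condition, so the groups overlapped. Normoxia TAC mouse 6, at 0.672 CPM, was just above the highest normoxia sham heart and within the range of hypoxia sham hearts. The log2 change after TAC was 3.75 ± 1.02 in hypoxia and 4.83 ± 1.10 in normoxia (SE, edgeR adjusted p = 0.0236 and 0.0034), and the difference of the 2 responses was -1.08 ± 1.54 (SE, edgeR adjusted p = 0.726). That difference ran from -2.71 without hypoxia TAC mouse 3 to -0.10 without normoxia TAC mouse 2. Without hypoxia TAC mouse 3 the hypoxia value was 2.11 and was not called (adjusted p = 0.140), nor was it without hypoxia sham mouse 3 or 4 (adjusted p = 0.0503 and 0.0526) or with no filter on low counts (adjusted p = 0.0549). Without normoxia TAC mouse 2 the normoxia value was 3.86. Adam8 passed the filter through TAC libraries, so its calls describe the levels and support nothing.

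Markers of the cells known for Adam8 were measured in the same libraries. Of 7 neutrophil markers, none at 0 in all libraries, 5 were tested. The summed level of these 5 ranged over 3.64 to 37.7 CPM in hypoxia TAC, 5.89 to 91.8 CPM in normoxia TAC, 1.79 to 8.0 CPM in hypoxia sham and 0.911 to 3.57 CPM in normoxia sham hearts. Of the 5 tested, 3 were higher after TAC in hypoxia and all 5 were in normoxia, beside 6.46% and 16.8% of genes tested. Sham levels were low, the filter's floor was 0.873 CPM per gene, and which libraries carried each marker past it was not examined. A marker that passed through TAC libraries has to differ, so these counts are a description. Of 9 macrophage and monocyte markers, none at 0 in all libraries, 7 were tested. These 7 summed to 78.2 to 254 CPM in hypoxia TAC, 125 to 396 CPM in normoxia TAC, 121 to 152 CPM in hypoxia sham and 88.6 to 119 CPM in normoxia sham hearts. After TAC in hypoxia edgeR and DESeq2 called none of the 7, with 1 at an unadjusted p under 0.05 in edgeR. In normoxia edgeR called 6 higher, beside 16.8% of genes tested. Their median log2 change after TAC was 0.21 in hypoxia and 0.98 in normoxia. Hypoxia TAC mouse 3, the highest for Adam8, was also the highest of its group for both sums. In normoxia TAC hearts mouse 2, the highest for Adam8, had the highest macrophage sum, while mouse 4 had the highest neutrophil sum. The part of these cells in the level of any member was not tested.

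Adam12, or meltrin alpha, known for shedding the EGF receptor ligand HB-EGF, was the least abundant member per length of transcript in every group. It reached 0.091, 0.821 and 8.05 CPM as lowest, median and highest level in hypoxia TAC hearts and 0.184, 1.94 and 6.98 CPM in normoxia TAC hearts. Sham hearts had at most 0.388 CPM, with 10 reads in all in the hypoxia sham group, where 2 libraries had none, and 9 reads in the normoxia sham group, where 3 had none. So few reads leave the size of the change uncertain: the fitted log2 change after TAC was 3.68 ± 1.09 in hypoxia and 4.37 ± 1.09 in normoxia (SE, edgeR adjusted p = 0.0325 and 0.0057). Leaving out hypoxia TAC mouse 3 gave 2.28 in hypoxia, which was not called (adjusted p = 0.187), while leaving out normoxia TAC mouse 2 gave 3.71 in normoxia and leaving out normoxia sham mouse 6 gave 5.18. The hypoxia call was also lost without hypoxia sham mouse 2, 3, 4 or 6 (adjusted p = 0.0593 to 0.0693) and with no filter on low counts (adjusted p = 0.0788). Adam12 passed that filter through TAC libraries, so its calls describe the levels and support nothing.

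Adam17, the enzyme that releases tumour necrosis factor and many EGF receptor ligands, was among the steadiest members. Its lowest, median and highest levels were 36.9, 40.4 and 61.0 CPM in hypoxia TAC hearts, 45.7, 56.3 and 58.6 CPM in normoxia TAC hearts, 49.9, 56.1 and 64.8 CPM in hypoxia sham hearts, and 46.8, 49.0 and 52.3 CPM in normoxia sham hearts. In hypoxia the log2 change after TAC was -0.31 ± 0.11 (SE, 95% interval -0.54 to -0.08, edgeR adjusted p = 0.0637), and 4 of the 6 hypoxia TAC mice lay below every mouse of the other groups. DESeq2 called this value (adjusted p = 0.0496), as did the fit without hypoxia TAC mouse 2 (adjusted p = 0.0124) or mouse 4 (adjusted p = 0.0239). In normoxia the change was 0.11 ± 0.11 (SE, 95% interval -0.12 to 0.34, edgeR adjusted p = 0.476). Opposite to 4.35% of its exon bases lies the gene Iah1.

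Adamts1, a versican-cutting protease whose transcript is known to be induced quickly by injury and inflammation, was the most abundant member per length in every group. Its mean level per kilobase of exon was 56.6 CPM in hypoxia TAC, 51.6 CPM in normoxia TAC, 12.7 CPM in hypoxia sham and 10.2 CPM in normoxia sham hearts. On the plain CPM scale the lowest, median and highest levels were 55.5, 175 and 652 in hypoxia TAC, 58.7, 171 and 793 in normoxia TAC, 55.7, 67.1 and 78.7 in hypoxia sham, and 32.4, 54.8 and 70.9 in normoxia sham hearts. Both TAC groups reached down into the sham range with their lowest mouse, and hypoxia TAC mice 3 and 6 and normoxia TAC mouse 4 stood at the top. The log2 change after TAC was 2.16 ± 0.58 in hypoxia and 2.34 ± 0.58 in normoxia (SE, edgeR adjusted p = 0.0221 and 0.0059), and these differed by -0.18 ± 0.78 (SE, 95% interval -1.81 to 1.45). In hypoxia the call was lost without TAC mouse 3 (adjusted p = 0.0712), TAC mouse 6 (adjusted p = 0.0564) or sham mouse 4 (adjusted p = 0.0510), while the value stayed between 1.77 and 2.38 over the 24 fits that left out 1 library. Without normoxia TAC mouse 4 the normoxia value was 1.65.

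Adamts4, an aggrecanase that also cuts versican, rose after TAC in normoxia. The lowest, median and highest levels were 1.91, 10.8 and 28.2 CPM in hypoxia TAC hearts, 1.10, 5.72 and 99.7 CPM in normoxia TAC hearts, 3.23, 4.46 and 6.01 CPM in hypoxia sham hearts, and 0.580, 0.711 and 1.73 CPM in normoxia sham hearts. Every hypoxia sham mouse lay above every normoxia sham mouse, as sham groups were free of overlap in 5.02% of genes tested, and normoxia TAC mice 2 and 4, at 99.7 and 90.7 CPM, lay far above the other 4 of their group. In hypoxia the log2 change after TAC was 1.46 ± 0.84 (SE, 95% interval -0.29 to 3.21, edgeR adjusted p = 0.251). In normoxia it was 5.05 ± 0.99 (SE, edgeR adjusted p = 0.0013), and without normoxia TAC mouse 2 it was 4.33. The difference of the 2 responses was -3.59 ± 1.27 (SE, edgeR adjusted p = 0.116), and DESeq2 called it (adjusted p = 0.0348).

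Between the sham groups the Adamts4 log2 difference was 2.14 ± 1.0 (SE, 95% interval 0.06 to 4.22), and it was not called in the model of all 24 libraries (edgeR adjusted p = 0.597). In a model of the 12 sham libraries alone, which does not take in the spread of the TAC hearts, the same difference was 2.14 ± 0.25 (SE, edgeR adjusted p = 3.44e-05). Hypoxia TAC hearts were above normoxia sham hearts by 3.6 ± 0.97 (SE, edgeR adjusted p = 0.0195), without overlap between the 12 mice, as in 7.17% of genes tested; without hypoxia TAC mouse 3 the value was 3.17 and was not called (adjusted p = 0.0572). Normoxia TAC hearts were above hypoxia sham hearts by 2.91 ± 0.86 (SE, edgeR adjusted p = 0.0185), but the call was lost in a model of those 2 groups alone (adjusted p = 0.0630), without normoxia TAC mouse 2 (2.2, adjusted p = 0.0694) and without mouse 4 (2.35, adjusted p = 0.0530).

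Adamts9, a versican protease of the pericellular space, had lowest, median and highest levels of 6.91, 12.8 and 16.9 CPM in hypoxia TAC, 4.98, 8.73 and 32.2 CPM in normoxia TAC, 6.92, 8.94 and 11.2 CPM in hypoxia sham and 4.84, 6.47 and 8.28 CPM in normoxia sham hearts. The groups overlapped in every contrast. After TAC the log2 change was 0.47 ± 0.32 in hypoxia (SE, edgeR adjusted p = 0.342). It was 1.05 ± 0.33 in normoxia (SE, edgeR adjusted p = 0.0206), where the call was lost without TAC mouse 4 (0.59, adjusted p = 0.109), without TAC mouse 2 (0.90, adjusted p = 0.0578) and in a model of the normoxia groups alone (adjusted p = 0.0701). Hypoxia TAC hearts were above normoxia sham hearts by 0.93 ± 0.33 (SE, edgeR adjusted p = 0.0596). DESeq2 called that value (adjusted p = 0.0282), as did edgeR in a model of those 2 groups alone (adjusted p = 0.0076). So did the fits without hypoxia TAC mouse 4 or normoxia TAC mouse 1, 4 or 5 (edgeR adjusted p = 0.0148 to 0.0474). The sham groups differed by 0.46 ± 0.33 (SE, edgeR adjusted p = 0.789), and by 0.46 ± 0.14 in the model of sham libraries alone (SE, edgeR adjusted p = 0.0444). The antisense gene A730049H05Rik lies opposite 9.18% of its exon bases.

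Adamts5, the other main aggrecanase, is the neighbour of Adamts1 on chromosome 16, and all its levels lay between 18.7 and 47.5 CPM. It ran over 28.0, 33.6 and 38.6 CPM in hypoxia TAC, 18.7, 33.7 and 36 CPM in normoxia TAC, 34.5, 39.2 and 47.5 CPM in hypoxia sham and 28.6, 36.6 and 42.7 CPM in normoxia sham hearts, as lowest, median and highest. Normoxia TAC mice 2 and 4, which were high for Adamts1 and Adamts4, were the lowest for Adamts5. The log2 change after TAC was -0.26 ± 0.15 in hypoxia and -0.32 ± 0.15 in normoxia (SE, edgeR adjusted p = 0.233 and 0.111). Normoxia TAC against hypoxia sham was the contrast in which it was called, at -0.44 ± 0.15 (SE, edgeR adjusted p = 0.0341), and that call was lost with no filter on low counts (adjusted p = 0.0607), in a model of those 2 groups alone (adjusted p = 0.0870), and without normoxia TAC mouse 2 or 4 or hypoxia sham mouse 5 or 6 (adjusted p = 0.0581 to 0.0885).

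Adamts15, a further versican-cutting member, was not called in any of the 7 contrasts by edgeR or DESeq2. It had 3.46, 11.2 and 17.2 CPM in hypoxia TAC, 1.98, 10.6 and 13.4 CPM in normoxia TAC, 6.82, 8.78 and 11.7 CPM in hypoxia sham and 7.04, 9.25 and 13.7 CPM in normoxia sham hearts, as lowest, median and highest. The hypoxia TAC group spread to both sides of the sham hearts, while the normoxia TAC group reached below them and not above. The log2 change after TAC was 0.25 ± 0.32 in hypoxia (SE, 95% interval -0.42 to 0.91) and -0.06 ± 0.32 in normoxia (SE, 95% interval -0.73 to 0.60).

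Adamts2, the procollagen N-proteinase, had lowest, median and highest levels of 5.29, 12.3 and 21.9 CPM in hypoxia TAC, 5.89, 9.12 and 23.3 CPM in normoxia TAC, 7.16, 8.66 and 10.01 CPM in hypoxia sham and 5.52, 6.65 and 9.36 CPM in normoxia sham hearts. Each TAC group had mice within the sham range. The log2 change after TAC was 0.66 ± 0.30 in hypoxia (SE, edgeR adjusted p = 0.138) and 0.81 ± 0.30 in normoxia (SE, edgeR adjusted p = 0.0482). The normoxia call was marginal: 16 of the 24 fits that left out 1 library lost it, and without TAC mouse 2 the value was 0.48 (adjusted p = 0.210). Hypoxia TAC hearts were above normoxia sham hearts by 1.03 ± 0.30 (SE, edgeR adjusted p = 0.0267), a call lost with no filter on low counts (adjusted p = 0.0544) and without hypoxia TAC mouse 2 or 3 or normoxia sham mouse 2, 3 or 4 (adjusted p = 0.0526 to 0.0841). The 8 fibroblast markers, all tested, summed to 3460 to 5350 CPM in hypoxia TAC, 2720 to 4280 CPM in normoxia TAC, 3530 to 4120 CPM in hypoxia sham and 3130 to 3570 CPM in normoxia sham hearts. Of these markers 1 was higher after TAC in hypoxia and 3 were in normoxia, beside 6.46% and 16.8% of genes tested. The part of fibroblasts in the Adamts2 level was not tested.

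Set side by side after TAC, hypoxia and normoxia gave no member an edgeR call, beside 11.1% of genes tested, and DESeq2 called none either. In a model of the 12 TAC libraries alone edgeR called 0 of all genes, with 2364 at an unadjusted p under 0.05. At an unadjusted p under 0.05 there was 1 member, Adam17, at -0.24 ± 0.11 (SE, edgeR adjusted p = 0.152); without hypoxia TAC mouse 2 it was -0.34 and called (adjusted p = 0.0265). The intervals for the scattered members were wide: the log2 difference lay between -1.77 and 1.62 for Adam8 and between -3.11 and 0.20 for Adamts4 (95% intervals). Leaving aside Adam19, edgeR and DESeq2 called none of the other 9 members between sham groups, beside 0.166% of genes tested, and 1 of them, Adamts4, had an unadjusted p under 0.05 in edgeR. In the difference between the TAC responses edgeR called none of these 9, beside 2.05% of genes tested, with Adam17 and Adamts4 at an unadjusted p under 0.05. Without hypoxia TAC mouse 2 Adam17 was called there, at -0.52 (adjusted p = 0.0300).

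Against normoxia sham hearts the combination of both stresses, and against hypoxia sham hearts pressure load alone, gave the remaining comparisons. Hypoxia TAC hearts had more of 6 members than normoxia sham hearts, which were Adam8, Adam12, Adam19, Adamts1, Adamts4 and Adamts2, beside 13.1% of genes tested called and 7.63% higher. The log2 changes were 4.76 ± 1.10 for Adam8, 4.04 ± 1.10 for Adam12 and 2.47 ± 0.58 for Adamts1 (SE, edgeR adjusted p = 0.0084, 0.0192 and 0.0095). Without hypoxia TAC mouse 3, the count was 2 members, Adam8 at 3.11 and Adamts1, and Adam12 was at 2.64 and not called (adjusted p = 0.124); without normoxia sham mouse 6 Adam12 was at 4.85. Normoxia TAC hearts had more Adam8, Adam12, Adamts1 and Adamts4 and less Adamts5 than hypoxia sham hearts, 5 of 10 beside 23.4% of genes tested, of which 14.3% were higher and 9.14% lower. The log2 changes were 3.83 ± 1.02 for Adam8, 4.01 ± 1.08 for Adam12 and 2.02 ± 0.57 for Adamts1 (SE, edgeR adjusted p = 0.0108, 0.0107 and 0.0152). Without normoxia TAC mouse 2 they were 2.86 for Adam8 and 3.36 for Adam12, and without mouse 4 Adamts1 was at 1.34 and not called (adjusted p = 0.0681), which left 2 members. In a model of those 2 groups alone 1 member was called, and Adam8 and Adam12 had too few reads to be tested in it. Of the 8 members that passed the filter on sham libraries as well, 4 were higher in hypoxia TAC than in normoxia sham hearts. Between normoxia TAC and hypoxia sham hearts 2 of them were higher and 1 lower. The members not called lay between -0.14 for Adamts5 and 0.93 for Adamts9 in hypoxia TAC against normoxia sham hearts, and between -0.47 for Adam19 and 0.59 for Adamts9 in normoxia TAC against hypoxia sham hearts. In the first of these contrasts Adamts9 had an edgeR adjusted p = 0.0596 and was called by DESeq2 (adjusted p = 0.0282).

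The same few mice were often the highest or lowest of their TAC group among the 10 members, some of which were not called after TAC. Hypoxia TAC mouse 3 was the highest of its group for 5 of the 10 members and among the top 2 for 8, and hypoxia TAC mouse 4 was the lowest for 6. In the normoxia TAC group mouse 2 was the highest for 5 and among the top 2 for 8, and mouse 1 was the lowest for 6. How often these mice were highest or lowest over all genes tested was not examined, so these ranks are a description. Normoxia TAC mouse 2 also had the lowest cardiomyocyte marker sum of all libraries, 30800 CPM. The mice did not keep one order for all members: hypoxia TAC mouse 6, with 652 CPM Adamts1, was the lowest of its group for Adam19 at 15 CPM and for Adamts2 at 5.29 CPM.

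**Figure D3:**
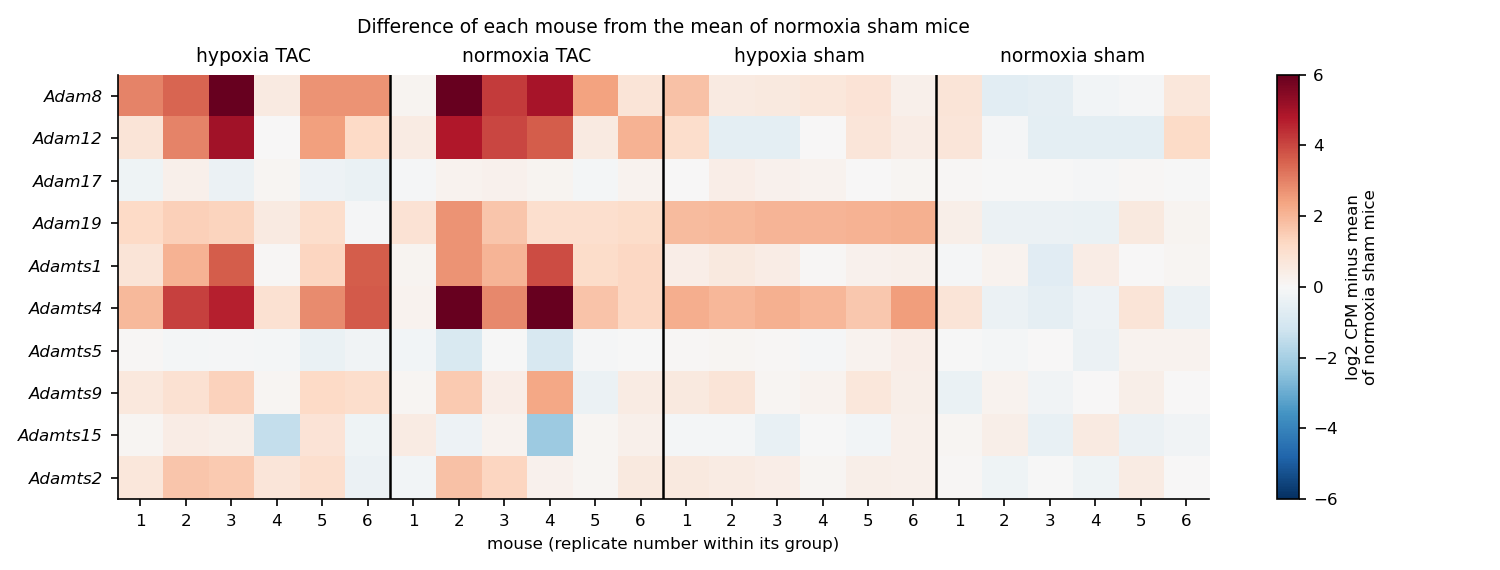
Log2 CPM of each transcript (rows) in each mouse (columns, by replicate number within the 4 groups) minus the mean of the normoxia sham mice; red is above and blue below that mean, and values past 6 take the darkest colour. Hypoxia TAC mouse 3 and normoxia TAC mice 2 and 4 are dark for Adam8, Adamts1 and Adamts4, hypoxia TAC mouse 4 and normoxia TAC mouse 1 are pale in those rows, and the hypoxia sham mice are evenly coloured for Adam19 and Adamts4.

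Genes with the most similar profile were looked up for each member by Pearson's r of log2 CPM over the 24 libraries, among 12531 genes. The libraries share the 4 groups and the same scattered TAC hearts, so these values describe a common pattern of levels and no more. Adamts1 ran closest to Btg2 at r = 0.973, Apold1 at 0.966 and Tent5a at 0.962. For Adam8 the closest were Spp1, which encodes osteopontin, at 0.966, and Tgm2 and Cndp2, both at 0.965. Adamts2 lay next to the collagen type I genes Col1a2 at 0.924 and Col1a1 at 0.908. Adamts4 came nearest to Cald1 at 0.939 and Adamts9 to Akap12 at 0.895. Adam19 had a weaker best match, Srgap1 at 0.850, and Adamts15 the weakest, Wdr5b at 0.727.

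The family has 49 further rows in the table, of which 12 had no read in any library and 20 were tested. In hypoxia 3 of the 20 were higher after TAC, beside 6.46% of genes tested: Adam22 at 1.10 ± 0.22, Adam15 at 0.71 ± 0.16 and Adamtsl4 at 0.64 ± 0.21 (SE, edgeR adjusted p = 0.0053, 0.0110 and 0.0460). The list's median log2 change was 0.23, beside 0.011 for all genes. Adamtsl4, a matrix protein of the family without protease activity, stood at 76.1 ± 29.2 CPM in hypoxia TAC, 42.4 ± 9.99 CPM in normoxia TAC, 48.8 ± 5.08 CPM in hypoxia sham and 61.3 ± 11 CPM in normoxia sham hearts (SD, n = 6 each). Its response to TAC in hypoxia exceeded that in normoxia by 1.17 ± 0.29 on the log2 scale (SE, edgeR adjusted p = 0.0406). Between hypoxia and normoxia after TAC it and Adamtsl2 were called, at 0.84 ± 0.21 and 0.68 ± 0.21 (SE, edgeR adjusted p = 0.0136 and 0.0403). The hypoxia call of Adamtsl4 was lost in 14 of the 24 fits that left out 1 library, its difference between responses in 16, and the Adamtsl2 call in 7. Between sham groups edgeR and DESeq2 called none of the 20, with 2 at an unadjusted p under 0.05 in edgeR.

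In normoxia 4 of the same 20 genes were higher after TAC and 3 lower, beside 27.4% of genes tested called, with a median log2 change of -0.04 beside 0.0095 for all genes. Adamts8, another aggrecan-cutting member, averaged 2.65 ± 1.80 CPM in normoxia TAC and 0.238 ± 0.164 CPM in normoxia sham hearts (SD, n = 6 each), a log2 change of 3.39 ± 0.55 (SE, edgeR adjusted p = 0.00024); it too passed the filter through TAC libraries, 10 against 1 sham library. Adamts7, a protease of cartilage oligomeric matrix protein, averaged 13.8 ± 11.1 CPM in normoxia TAC and 37.6 ± 3.57 CPM in normoxia sham hearts (SD, n = 6 each), a log2 change of -1.44 ± 0.33 (SE, edgeR adjusted p = 0.0033). Adam22, Adam15 and Adam9 also rose in normoxia, by 0.83, 0.53 and 0.68 on the log2 scale, and Adamts10 and Adam1a fell by 0.48 and 0.85. Of these, Adam15 lost its call in 1 of the 24 fits that left out 1 library (normoxia TAC mouse 2), Adam9 in 2 (normoxia TAC mice 2 and 4), Adamts10 in 4 and Adam1a in 5.

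**Figure D4:**
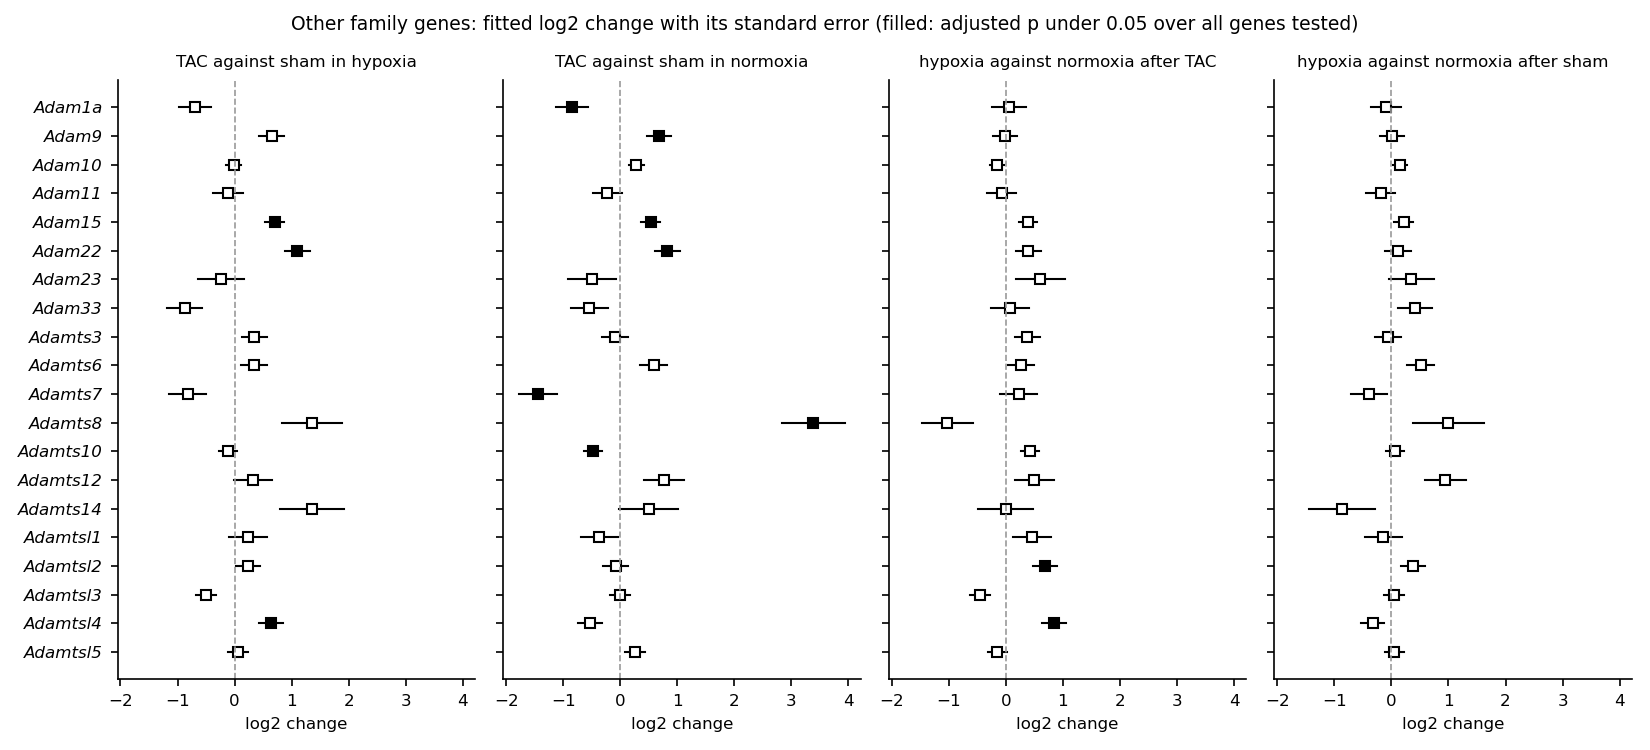
Fitted log2 change (horizontal axis) of the 20 other family genes tested, in 4 contrasts, with the SE as a line; filled squares have an adjusted p under 0.05 over all genes tested. Adamts8 stands far to the right at 3.39 for TAC against sham in normoxia and Adamts7 to the left at -1.44, and the sham contrast has only open squares.

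Of 7 genes for ADAM17 trafficking and proprotein convertases, all tested, Pcsk6, a convertase of the furin type, was lower after TAC in both conditions, at -1.14 ± 0.26 in hypoxia and -0.75 ± 0.26 in normoxia (SE, edgeR adjusted p = 0.0103 and 0.0334). The normoxia call was lost in 6 of the 24 fits that left out 1 library. The other 6 were not called by edgeR in either, while DESeq2 called 3 higher in hypoxia, so that edgeR called 1 of 7 in each, beside 11.1% of genes tested in hypoxia and 27.4% in normoxia. The median of the list was 0.33 in hypoxia and 0.26 in normoxia. Of 4 tested tetraspanins that escort ADAM10, Tspan17 was higher after TAC in hypoxia by 1.41 ± 0.33 (SE, edgeR adjusted p = 0.0115), as were 6.46% of genes tested.

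Among the 5 genes of TIMP and RECK inhibitors, Timp1 was higher after TAC in both oxygen conditions. Of genes tested, 6.46% were higher in hypoxia and 16.8% in normoxia. Timp1 averaged 36.1 ± 40.2 CPM in hypoxia TAC, 100.1 ± 112 CPM in normoxia TAC, 2.23 ± 0.967 CPM in hypoxia sham and 1.56 ± 0.768 CPM in normoxia sham hearts (SD, n = 6 each), with log2 changes of 4.02 ± 0.98 in hypoxia and 6.0 ± 1.05 in normoxia (SE, edgeR adjusted p = 0.0147 and 0.00057). Timp3, the inhibitor known to block ADAM17 and the aggrecanases, was higher after TAC in hypoxia, at 576 ± 166 CPM in hypoxia TAC and 307 ± 24.8 CPM in hypoxia sham hearts (SD, n = 6 each), a log2 change of 0.91 ± 0.17 (SE, edgeR adjusted p = 0.0039).

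Of 14 tested transcripts of proteins that ADAMs shed, edgeR called none after TAC in hypoxia, with 5 at an unadjusted p under 0.05, and DESeq2 called 3; the list's median was 0.18. In normoxia edgeR called 9, beside 27.4% of genes tested, of which 8 were higher and 1 lower, with a median of 0.75. Ereg, among those called higher, passed the filter on low counts through TAC libraries, 6 against 0 sham libraries, so its call supports nothing. Hbegf, the ligand released by ADAM12 and ADAM17, averaged 301 ± 421 CPM in normoxia TAC and 22 ± 1.64 CPM in normoxia sham hearts (SD, n = 6 each), a log2 change of 3.77 ± 0.78 (SE, edgeR adjusted p = 0.0019). Its normoxia TAC levels were very uneven, with 24.2, 85.4 and 1091 CPM as lowest, median and highest. In hypoxia Hbegf averaged 90.0 ± 83.1 CPM after TAC and 22.5 ± 1.40 CPM after sham (SD, n = 6 each) and was not called by edgeR. Vcam1, an endothelial adhesion receptor, had a log2 change of 1.60 ± 0.33 in normoxia (SE, edgeR adjusted p = 0.0018).

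Of the proteoglycan substrates and cofactors of ADAMTS proteases 4 of 10 were tested, and Vcan and Sdc4 were higher after TAC in normoxia, beside 16.8% of genes tested. Vcan, which encodes versican, averaged 20.4 ± 11.6 CPM in hypoxia TAC and 11.9 ± 2.78 CPM in hypoxia sham hearts (SD, n = 6 each), a log2 change of 0.78 ± 0.34 (SE, edgeR adjusted p = 0.128). In normoxia its levels were 38.3 ± 20.1 CPM after TAC and 7.28 ± 1.16 CPM after sham (SD, n = 6 each), a log2 change of 2.39 ± 0.35 (SE, edgeR adjusted p = 0.00015). Of 11 tested procollagen substrates of Adamts2 and their processing enzymes, 1 was higher after TAC in hypoxia, beside 6.46% of genes tested. It was Col5a2, at 1.28 ± 0.39 (SE, edgeR adjusted p = 0.0357), a call lost in 9 of the 24 fits that left out 1 library. In normoxia 4 were higher, beside 16.8% of genes tested: Col5a2, Col3a1, Col1a1 and Col1a2, by 1.47 to 2.06 on the log2 scale. The medians of the list were 0.88 in hypoxia and 0.55 in normoxia. Without normoxia TAC mouse 2 Col1a1 was at 1.38 and Col1a2 at 1.11, and neither was called (adjusted p = 0.0665 and 0.0627); without mouse 3 Col1a2 was not called either (adjusted p = 0.0529).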

How the data were processed

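Messenger RNA of the heart apex was sequenced for 24 mice, with 1 library each from 100 ng of total RNA, per the labels' protocols. Reads were aligned and counted per gene by the authors with STAR 2.7.3a and featureCounts of Subread 2.0.0 on GRCm39, per the submitters' processing notes; the annotation and the strand setting are not given in the sources used here. The deposited values are raw counts of reads per gene. Replicate libraries of a group differed by at least 3.42 in chi-square per gene, so none was a repeat of another.

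The members and gene lists were chosen with earlier results of these data known, and which contrast led to the choice is not recorded, so the adjusted p-values of members set a change against the spread between mice and are no independent evidence. The rule named all members in every contrast, of which some are given only in a range or a plot, and of each list up to 4 genes per contrast with the smallest p, of which the text gives part.

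From the counts, edgeR 4.0.16 (R 4.3.3) kept genes by filterByExpr (minimum count 10, minimum total 15), scaled by TMM and fitted 1 model of 4 group means with robust quasi-likelihood, leaving 20 residual degrees of freedom and a biological coefficient of variation of 0.241. CPM are TMM-scaled; log2 CPM have a prior count of 2. The fit was tested on simulated data. Depth was 10136915 to 15058159 counts per library, of which the genes tested hold 99.86%. Alternatives were scaling by RLE, no filter, a replicate block, DESeq2 1.42.0, only the groups compared, and leaving out each library. Exon lengths and overlaps come from GENCODE M21 on GRCm38.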

Additional observations from a re-analysis of the deposited data

Results flagged for a closer look

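For each member and group the mouse farthest from the other 5 was examined with Dixon's 95% test of its gap against the range of the group in log2 CPM, in 40 tests, and chance alone flags about 1 in 20. The test marked 2. Adam8 in hypoxia sham mouse 1 was 1.46 CPM, with a gap of 0.649 of the group's range on the log2 scale; the other 5 mice of that group had 0.430 to 0.681 CPM. Adamts15 in normoxia TAC mouse 4 was 1.98 CPM, with a gap of 0.703 of the group's range on the log2 scale, below the other 5 at 7.70 to 13.4 CPM. That mouse had the highest Adamts1 and Adamts9 of its group. The Adam19 response to TAC differed in sign between the oxygen conditions, and the difference between the responses, hypoxia minus normoxia, was -2.55 on the log2 scale; the choice of Adam19 followed earlier results of these data, so this is a description.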

How the results depend on the processing

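In models of only the groups compared, 3 members and 2724 genes were called for TAC against sham in normoxia. Between sham groups 1658 genes were called, among them Adamts4 and Adamts9. For hypoxia against normoxia after TAC edgeR called 0 genes (2364 at an unadjusted p under 0.05, while DESeq2 on all libraries called 2252). For normoxia TAC against hypoxia sham 1 member and 2091 genes were called. Adam12 had too few reads to be tested in models of only the groups compared, that of the TAC groups apart. So had Adam8, apart from the models of the TAC groups and of the hypoxia groups. A model of only the groups compared could not be run for the difference between responses, which needs all 24 libraries. With no filter on low counts, more genes enter the adjustment, and the counts were 1 member and 1019 genes for TAC against sham in hypoxia, 11 genes between sham groups, 1031 genes between TAC groups, 135 genes for the difference between responses, and 3 members and 1295 genes for hypoxia TAC against normoxia sham. DESeq2 called 96 genes between sham groups. For the difference between responses it called 919 genes, and of the members other than Adam19 it called Adamts4. RLE scaling moved none of these counts by over 1.5 times, and no scaling moved the median of all genes by as much as 0.1 on the log2 scale.

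The replicate numbers recur in all groups but do not pair the mice: same-numbered mice had correlations of -0.314 to 0.346 (median 0.011), over 0.1 in 5 of 36 pairs, and 16 of 72 matched their own number best. With the number as a replicate block, 1 member (Adam19) was called for TAC against sham in hypoxia, 3 for normoxia TAC against hypoxia sham, and 13 genes between sham groups. Adamts9 between TAC groups was 0.0162 with the block and -0.118 without it on the log2 scale, and was not called in either.

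Leaving out each library in turn gave 5 to 7 members and 3151 to 5083 genes for TAC against sham in normoxia (5 without normoxia TAC mouse 2), 1 to 5 and 664 to 2834 in hypoxia (1 member and 664 genes without hypoxia TAC mouse 3, 1 member without hypoxia sham mouse 4 and 2 without mouse 3), 0 to 1 and 775 to 2169 between TAC groups, 2 to 7 and 990 to 2824 for hypoxia TAC against normoxia sham, and 2 to 5 and 2549 to 4422 for normoxia TAC against hypoxia sham. Between sham groups 6 to 50 genes were called and for the difference 93 to 946 genes. Member counts are left out for these contrasts, as they take in Adam19, described there with no test. Log2 values not called changed sign in these fits for Adamts15 after TAC in normoxia (-0.195 to 0.141), in hypoxia TAC against normoxia sham (-0.0784 to 0.294) and in normoxia TAC against hypoxia sham (-0.0604 to 0.279), and for Adam12 between sham groups (-0.0903 to 1.17). Between TAC groups they did so for Adam8 (-1.72 to 0.898), Adam12 (-1.73 to 0.327), Adamts1 (-0.250 to 0.820), Adamts9 (-0.288 to 0.336) and Adamts15 (-0.0276 to 0.358), and in the difference between responses for Adamts1 (-0.562 to 0.509), Adamts5 (-0.0440 to 0.130) and Adamts2 (-0.304 to 0.189). The causes were not tested. Adamts1 and Adamts4 stayed called after TAC in normoxia in all 24 of these fits. Adam19 did too, as a description, since its sham groups were known beforehand to differ. So did Adam8 and Adam12, but they passed the filter through TAC libraries and their calls support nothing. Depth limits Adam12 most, with 10 reads in the hypoxia sham and 9 in the normoxia sham group.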
